A study of Mus musculus with 6 samples.

Results

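DNA replication and G1/S genes are the 37 genes examined here: the machinery that licenses origins and copies DNA, the enzymes that make deoxynucleotides, and the cyclins, kinases and E2F factors that take a cell from G1 into S phase. They were chosen by name, with earlier results of these data known. Each was matched to the transcript cluster (the probe set of one gene on the array) whose annotated symbol is that gene. All 37 have 1 cluster. For 36 of them the cluster names no other gene, whereas the Mcm7 cluster is shared with Mir25 and Mir93, microRNAs that lie within the Mcm7 gene. Values at or above the array median on at least 3 arrays were required for testing, and 34 members met this, 33 of them on all 6 arrays. Fen1 and E2f1 lay below that level. No member met it through Keap1_KO arrays alone. In all, 16825 genes were tested.

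The samples are splenic T cells carrying CD4 and CD25, a marker pair that enriches regulatory T (Treg) cells, taken by magnetic separation (MACS) from untreated male C57BL/6 mice. The labels of the samples give CD4+, but CD4 carries a minus sign in the title of the series. The Keap1_KO group (3 arrays, replicates B, C and D; genotype Keap1 -/-) carries floxed Keap1 alleles and Vav-driven Cre, which acts in blood-forming cells generally and is not restricted to Treg cells. The WT group (3 arrays, replicates A, D and F) is given as Keap1 +/+, and whether these mice carry Cre or floxed alleles is not stated. The labels conflict on age, with 10 to 12 months among the characteristics but 6 to 10 weeks under growth conditions. Keap1 is the adaptor that directs the antioxidant factor NRF2 to degradation. The comparison asks how the transcripts of cells with the Treg phenotype differ once Keap1 is deleted.

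As background, a cell prepares for replication in G1, when the origin recognition complex, Cdc6 and Cdt1 load the MCM helicase onto origins. Cyclin D with Cdk4 or Cdk6, and then cyclin E, inactivate RB and free E2F factors, which drive transcription of most of the genes considered here. In S phase Cdc45 and the GINS complex switch the helicase on, primase and polymerases copy the strands, and PCNA, loaded by the RFC complex, holds the polymerases on DNA. Treg cells divide more than naive T cells in the resting mouse, so a Treg-rich population normally holds some cycling cells.

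Promoter sequences are shown because many of the members are textbook E2F targets. Whether the letters go with the pattern across arrays was not tested. RefSeq windows (GRCm38.p6, from 250 bases before to 50 bases after a gene start) were found for 29 of the 37 members, 35 windows in all. The E2F letters TTTCCCGC, TTTGGCGC, TTTCGCGC or TTTGCCGC, on either strand, occurred in 11 of these 35 windows (31.4%), compared with 744 of 32851 windows of all genes (2.26%). The 11 genes were Orc1, Cdc6, Cdt1, Mcm3, Mcm5, Mcm6, Mcm7, Rfc3, Pola1, Lig1 and E2f2. Below, the capitals mark E2F letters in the 170 bases before the start of Mcm5 (chr8:75109339-75109508, plus strand), Mcm6 (chr1:128359706-128359875, minus strand), Rfc3 (chr5:151651209-151651378, minus strand) and Cdc6 (chr11:98907981-98908150, plus strand), and in the 29 bases of Mcm3 that hold its pair of matches, which begin 19 and 38 bases after the start (chr1:20820266-20820294, minus strand). In Mcm5 and in the upstream site of Mcm6, 2 overlapping matches on opposite strands form 1 capital run.
Mcm5: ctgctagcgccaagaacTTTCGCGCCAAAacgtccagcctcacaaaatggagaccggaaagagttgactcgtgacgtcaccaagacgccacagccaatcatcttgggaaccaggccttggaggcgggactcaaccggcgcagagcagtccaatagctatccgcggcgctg
Mcm6: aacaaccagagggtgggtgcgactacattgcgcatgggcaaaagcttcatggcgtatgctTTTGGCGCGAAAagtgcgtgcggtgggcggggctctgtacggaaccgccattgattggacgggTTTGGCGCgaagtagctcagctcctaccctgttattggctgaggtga
Rfc3: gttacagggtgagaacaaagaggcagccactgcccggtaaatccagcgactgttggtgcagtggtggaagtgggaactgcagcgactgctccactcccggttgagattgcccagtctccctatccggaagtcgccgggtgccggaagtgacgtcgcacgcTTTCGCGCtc
Cdc6: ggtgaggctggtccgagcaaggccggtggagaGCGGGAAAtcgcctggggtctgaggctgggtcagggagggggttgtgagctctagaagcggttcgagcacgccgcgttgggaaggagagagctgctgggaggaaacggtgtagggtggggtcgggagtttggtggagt
Mcm3: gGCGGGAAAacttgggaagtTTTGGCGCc

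Rrm2, described below as separating the genotypes on every array, has none of these E2F letters in its window, and its 170 bases before the start (chr12:24708084-24708253, plus strand) are shown with the CCAAT letters, the core of the NF-Y box common in cell cycle promoters, in capitals. CCAAT, on either strand, occurred in 19 of the 35 member windows (54.3%) and in 37.4% of all windows. The GC box GGGCGG occurred in 24 (68.6%), against 35.7% of all windows. TGACNNNGC, the core of the antioxidant response element that NRF2 binds, occurred in 8 (22.9%; Orc6, Cdc6, Pcna, Rfc3, Rfc5, Rrm2, Ccnd3 and Cdk4), against 12.4%. Across the member windows, 1 E2F match overlapped a CCAAT match, in Mcm7. These are matches of letters and say nothing on whether a factor binds there.
Rrm2: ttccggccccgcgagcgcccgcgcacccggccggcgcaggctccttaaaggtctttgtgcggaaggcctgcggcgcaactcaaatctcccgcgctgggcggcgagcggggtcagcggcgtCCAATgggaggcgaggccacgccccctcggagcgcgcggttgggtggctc

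Values are deposited log2 values, differences are Keap1_KO minus WT, and a triplet of WT values follows the order A, D, F and a triplet of Keap1_KO values the order B, C, D. The targeted gene and a standard NRF2 readout were read first. Keap1, too dim to enter the test, was 5.30, 5.41 and 5.77 in WT and 4.87, 4.89 and 4.70 in Keap1_KO, without overlap (exact two-sided permutation p = 0.1, the smallest possible here). Nqo1, a quinone reductase above the array median on Keap1_KO arrays alone, was between 4.68 and 5.03 on WT arrays and at 8.50, 7.55 and 9.14 in Keap1_KO, so the readout was high on each Keap1_KO array, B included. Of the Treg markers, Il2ra, Ctla4 and Ikzf2 lay at 11.78 or above on every array, and a cluster annotated to Foxp3 together with other transcripts averaged 10.89 ± 0.22 in WT and 11.87 ± 0.67 in Keap1_KO (SD, n = 3). Across genes tested, Keap1_KO B correlated with the 3 WT arrays at 0.982 to 0.988 and with Keap1_KO C and D at 0.961 and 0.958. Whether the replicates are different mice is not stated, and p-values therefore reflect array-to-array spread, which may be technical.

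Most replication genes had a higher mean in Keap1_KO, and none passed the adjusted threshold. Of the 34 tested members, 30 (88.2%) had a higher mean in Keap1_KO, compared with 56.5% of all genes tested. The median difference was 0.36, compared with 0.06 over all genes. No member, and no gene at all (0% of 16825), had a limma adjusted p under 0.05, and the lowest adjusted p of a member was 0.476. At an unadjusted limma p under 0.05, which 1733 genes met, 8 members were higher (23.5%, against 8.38% of all genes) and 0 were lower (against 1.92%). In 7 members each Keap1_KO array exceeded each WT array (20.6%, against 9.11% of all genes), and the reverse held for 0 (against 4.96%). Because the list was chosen with earlier results of these data known, these shares are descriptions and not tests. In bulk RNA, more cells in S phase and more transcript per cell cannot be told apart.

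**Figure D1:**
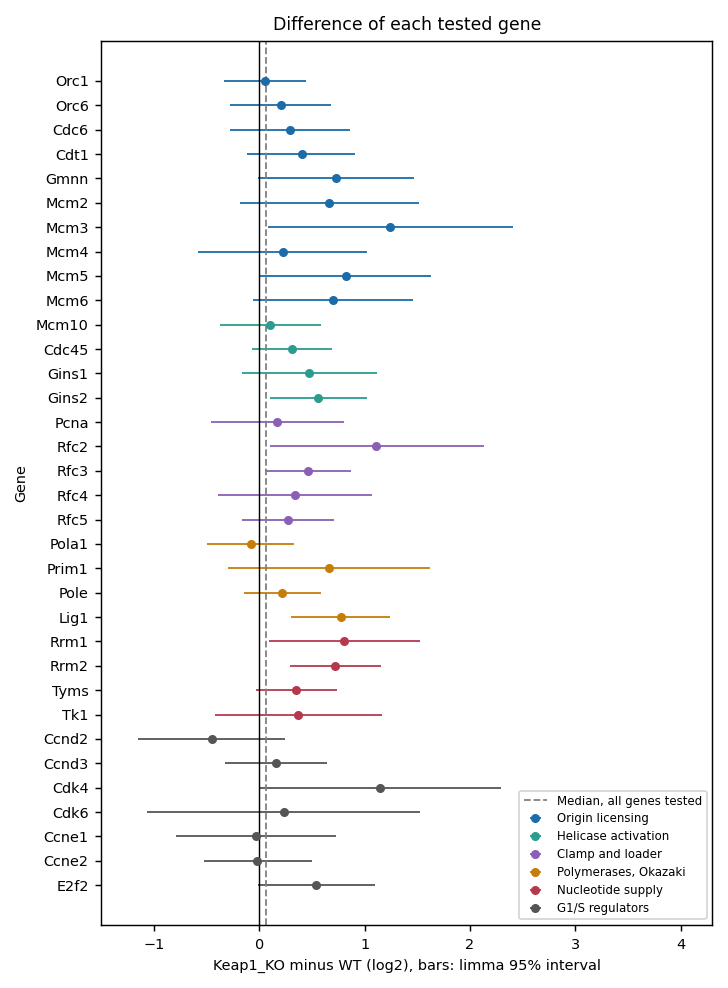
Keap1_KO minus WT (log2) for the 34 tested genes, grouped by role; points are differences between means of 3 arrays, bars the limma 95% interval, and the dashed line the median of all genes tested (0.06). Of the 34 points 30 lie above 0, and Mcm3 (1.24), Cdk4 (1.14) and Rfc2 (1.11) lie farthest to the right.

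The members did not share one array pattern. In 11 members (32.4%, against 22.3% of all genes) Keap1_KO C and D exceeded every WT array while Keap1_KO B did not. Those with the largest differences, Mcm3, Cdk4, Rfc2, Mcm5 and Rrm1, are of this kind. The 7 members without overlap form another kind, with differences between 0.21 and 0.77 and Keap1_KO B above WT as well. Keap1_KO B exceeded all WT arrays in 13 members (38.2%, against 18.9% of all genes), Keap1_KO C in 20 (58.8%, against 38.2%) and Keap1_KO D in 20 (58.8%, against 42.3%). WT F was the lowest array in 19 (55.9%, against 34.4%).

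**Figure D2:**
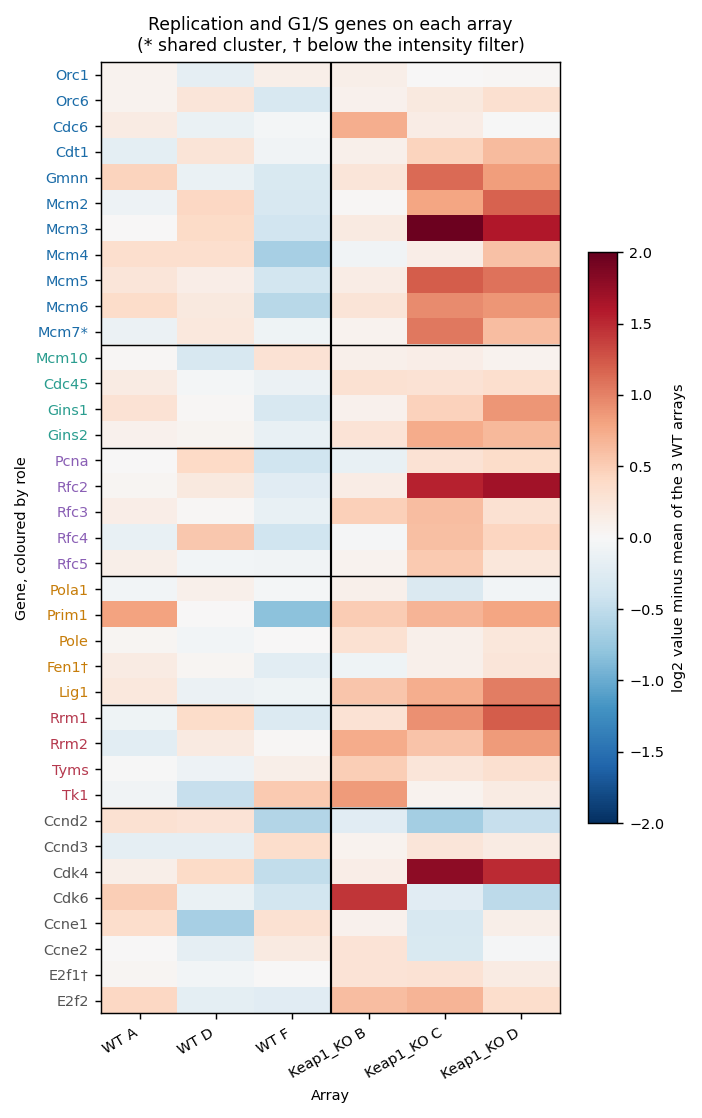
Log2 value of each of the 37 genes (rows, by role) on each array (columns) minus the mean of the 3 WT arrays; red is higher and blue lower. Mcm2, Mcm3, Mcm5, Mcm6, Rfc2 and Cdk4 are reddest on Keap1_KO C and D, whereas Rrm2 and Lig1 are red on all 3 Keap1_KO arrays and Cdk6 on Keap1_KO B.

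Among the origin licensing genes, all 10 tested members had a higher mean in Keap1_KO (median 0.53), and the MCM helicase subunits gave the largest differences. Mcm3 read 8.25, 8.62 and 7.86 in WT and 8.42, 10.21 and 9.84 in Keap1_KO. Keap1_KO C and D lay well above all WT arrays and Keap1_KO B lay among them, giving a difference of 1.24 (SE 0.48, limma adjusted p = 0.476), or 2.37-fold. Mcm5 read 7.53, 7.43 and 6.92 in WT and 7.44, 8.51 and 8.38 in Keap1_KO. Here too Keap1_KO C and D were above all WT arrays and Keap1_KO B lay among them, with a difference of 0.82 (SE 0.34).

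The other helicase subunits followed with smaller differences. Mcm2 read 6.97, 7.49 and 6.76 in WT and 7.09, 7.86 and 8.26 in Keap1_KO, a difference of 0.66 (SE 0.35). Mcm6 read 11.52, 11.36 and 10.60 in WT and 11.42, 12.11 and 12.04 in Keap1_KO, a difference of 0.70 (SE 0.32). For both genes Keap1_KO C and D were the highest arrays and Keap1_KO B lay within the WT range. The cluster shared by Mcm7, Mir25 and Mir93 read 7.13, 7.47 and 7.16 in WT and 7.33, 8.31 and 7.87 in Keap1_KO, a difference of 0.58 with Keap1_KO C and D again highest (exact two-sided permutation p = 0.2; the smallest that 3 arrays against 3 allow is 0.1). Mcm4 read 11.16, 11.16 and 10.17 in WT and 10.76, 10.97 and 11.42 in Keap1_KO. The genotypes overlapped throughout for Mcm4, and its difference of 0.22 (SE 0.33) was -0.11 without WT F. The 6 subunits form 1 ring in equal numbers in the protein complex. Their transcripts differed between the genotypes by between 0.22 and 1.24, and differences between subunits were not tested.

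The loading factors and their inhibitor differed by between 0.05 and 0.73. Gmnn, whose product geminin binds and restrains Cdt1, averaged 7.50 ± 0.39 in WT and 8.23 ± 0.45 in Keap1_KO, a difference of 0.73 (SE 0.31). Cdt1, the MCM loader that geminin inhibits, averaged 5.56 ± 0.23 and 5.96 ± 0.27, a difference of 0.40. Cdc6, the ATPase that loads MCM together with Cdt1, was high on Keap1_KO B (7.10) and within the WT range of 6.24 to 6.54 on Keap1_KO C (6.52) and D (6.36). The subunits of the origin recognition complex differed by 0.05 for Orc1 (95% interval -0.34 to 0.44), a direction that turned with array weights (-0.0032) and without WT D (-0.041), and by 0.20 for Orc6 (-0.28 to 0.68).

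Of the 4 helicase activators, Cdc45 and Gins2 lay above WT on all Keap1_KO arrays, and Gins1 and Mcm10 overlapped. Cdc45, which joins the MCM ring at origin firing, read 7.65, 7.44 and 7.37 in WT and 7.79, 7.77 and 7.83 in Keap1_KO. Each Keap1_KO array was above each WT array, the Keap1_KO arrays lay close together, and the difference was 0.31 (SE 0.16, limma adjusted p = 0.487). Gins2, a subunit of the GINS complex, read 7.02, 6.99 and 6.78 in WT and 7.21, 7.67 and 7.58 in Keap1_KO, again without overlap and with a difference of 0.56 (SE 0.19). Gins1 averaged 6.48 ± 0.31 and 6.96 ± 0.39 and the arrays overlapped. Mcm10, which binds the activated helicase, was near the array median on all arrays (4.99 to 5.59) and differed by 0.10, which was -0.053 without WT D.

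Of the sliding clamp and its loader, Rfc2 differed most. It read 6.54, 6.70 and 6.28 in WT and 6.66, 8.04 and 8.18 in Keap1_KO, so Keap1_KO C and D lay above every WT array while Keap1_KO B lay among them (difference 1.11, SE 0.42, limma adjusted p = 0.476). Rfc3 read 6.86, 6.75 and 6.58 in WT and 7.20, 7.35 and 7.03 in Keap1_KO. Here all Keap1_KO arrays exceeded all WT arrays, with a difference of 0.46 (SE 0.17). Rfc4 and Rfc5 differed by 0.34 and 0.27 with overlap. Pcna, the clamp, read 14.85, 15.24 and 14.45 in WT and 14.70, 15.14 and 15.21 in Keap1_KO. Its arrays were interleaved and the difference of 0.17 (95% interval -0.46 to 0.80) turned to -0.0074 after repeated quantile normalization and to -0.028 without WT F. RFC subunits act as 1 complex. The 95% intervals of their largest and smallest differences, Rfc2 (0.10 to 2.13) and Rfc5 (-0.17 to 0.71), overlapped. Differences between subunits were not tested.

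Among the 4 tested polymerase and Okazaki fragment genes, Lig1 and Prim1 had the larger differences and Pole and Pola1 the smaller ones. Lig1, which seals Okazaki fragments, read 8.48, 8.16 and 8.18 in WT and 8.83, 9.0 and 9.29 in Keap1_KO. All Keap1_KO arrays lay above all WT arrays, and the difference was 0.77 (SE 0.19, limma adjusted p = 0.476), or 1.70-fold. Pole, the leading-strand polymerase, read 6.08, 5.99 and 6.05 in WT and 6.35, 6.14 and 6.26 in Keap1_KO, without overlap but with a difference of 0.21 only. Pola1, the polymerase that starts each fragment, differed by -0.08 (95% interval -0.50 to 0.33), turning to 0.028 with centred arrays and 0.02 without Keap1_KO C. Prim1, the primase subunit, spread from 7.23 to 8.85 within WT and from 8.55 to 8.84 in Keap1_KO. Its difference was 0.66 (SE 0.40), with overlap. Fen1, the flap nuclease, was below the array median on every array (4.12 to 4.58) and differed by 0.09.

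The genes of nucleotide supply all had higher means (4 of 4, median 0.54). Rrm2, the S phase subunit of ribonucleotide reductase, read 7.06, 7.45 and 7.28 in WT and 8.01, 7.83 and 8.11 in Keap1_KO. Its lowest Keap1_KO array lay above its highest WT array, the difference was 0.72 (SE 0.18, limma adjusted p = 0.476), and Keap1_KO B stood as far above the WT mean (0.74) as Keap1_KO C and D together (0.71). Rrm1, the large subunit of the same enzyme, read 9.86, 10.32 and 9.67 in WT and 10.24, 10.86 and 11.16 in Keap1_KO, a difference of 0.80 (SE 0.30). Unlike its partner it left Keap1_KO B within the WT range.

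Thymidylate synthesis gave small differences. Tyms, thymidylate synthase, read 8.61, 8.51 and 8.73 in WT and 9.11, 8.86 and 8.94 in Keap1_KO, without overlap and with Keap1_KO B highest (difference 0.35, SE 0.16). Tk1, the salvage thymidine kinase, averaged 6.86 ± 0.49 and 7.23 ± 0.42, also with its highest value on Keap1_KO B (7.71), and the arrays overlapped.

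**Figure D3:**
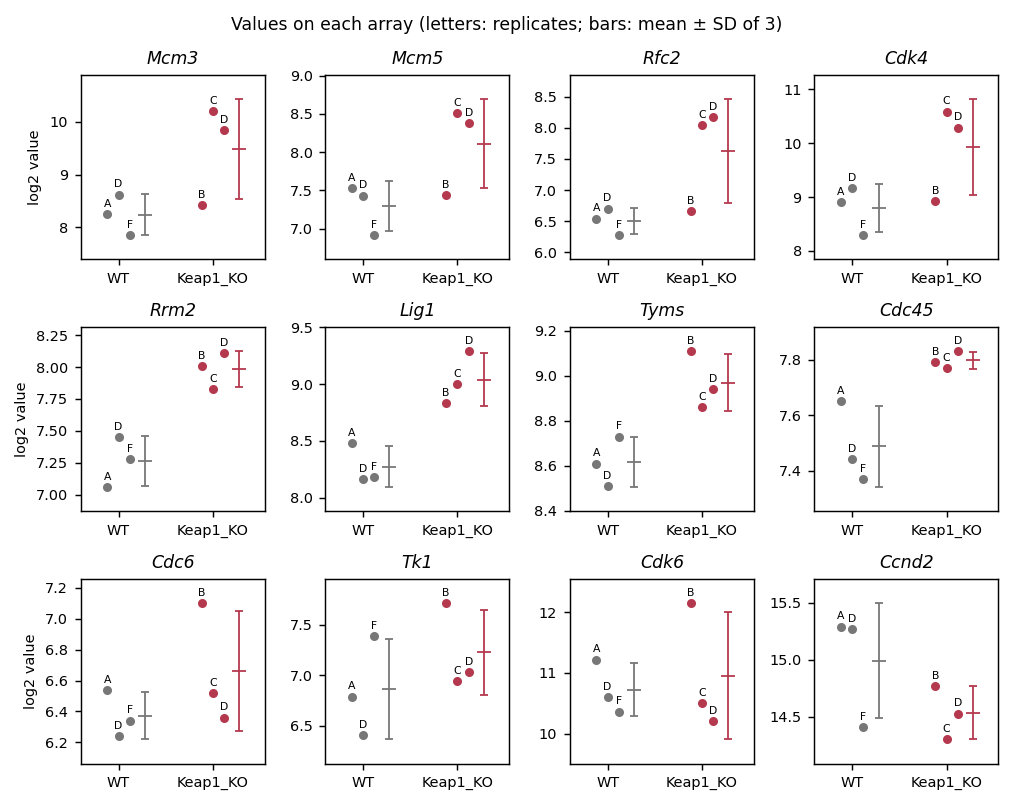
Log2 values on each array for 12 genes (axes differ between panels and do not start at 0); letters name the replicates and bars give the mean ± SD of 3 arrays. In the top row Keap1_KO B sits with the WT arrays, in the middle row all Keap1_KO arrays lie above all WT arrays, and in the bottom row Keap1_KO B is highest for Cdc6, Tk1 and Cdk6 while Ccnd2 overlaps.

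The G1/S regulators went in different directions, with 4 of 7 tested members higher and a median of 0.16. Cdk4, the cyclin D kinase, read 8.91, 9.17 and 8.30 in WT and 8.92, 10.59 and 10.29 in Keap1_KO. Keap1_KO C and D were the highest arrays, Keap1_KO B lay among WT, and the difference was 1.14 (SE 0.48, limma adjusted p = 0.476). Cdk6, the kinase that can take the place of Cdk4, showed another order, at 11.22, 10.60 and 10.36 in WT and 12.15, 10.50 and 10.21 in Keap1_KO. Its difference of 0.23 rested on Keap1_KO B and was -0.37 without it, and -0.48 with array weights.

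Of the D cyclins, Ccnd2 read 15.29, 15.27 and 14.41 in WT and 14.77, 14.31 and 14.53 in Keap1_KO. It was the member with the lowest difference, -0.45 (SE 0.29), and WT F lay among the Keap1_KO arrays. Ccnd3 read 7.65, 7.65 and 8.17 in WT and 7.90, 8.07 and 7.98 in Keap1_KO, a difference of 0.16 with WT F highest. The 2 cyclins therefore differed in opposite directions in their means, both within the spread of the arrays.

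The E cyclins did not separate the genotypes. Ccne1 read 7.09, 6.08 and 7.04 in WT and 6.83, 6.42 and 6.86 in Keap1_KO, a difference of -0.03 (95% interval -0.79 to 0.73), and Ccne2 differed by -0.02 (-0.53 to 0.50). Either difference turned positive after repeated quantile normalization (0.074 and 0.072) and with centred arrays (0.081 and 0.096). E2f1, an activating E2F, was below the array median but read 4.70, 4.60 and 4.66 in WT and 4.92, 4.95 and 4.82 in Keap1_KO, without overlap and with a difference of 0.24 in the fit with no intensity filter (limma adjusted p = 0.563). E2f2, an activating E2F related to E2f1, averaged 5.83 ± 0.36 and 6.38 ± 0.17, a difference of 0.54 with WT A (6.25) inside the Keap1_KO range.

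Removing Keap1_KO B, the Keap1_KO array closest to WT, changed the result. For members high on Keap1_KO C and D alone, leaving it out widens the difference by construction. The counts without it are therefore no separate support. Without it the number of members with Keap1_KO above WT on all arrays was 18 (against 31.6% of all genes), and 2 members, Rfc2 (difference 1.60, limma adjusted p = 0.037) and Mcm3 (1.78, 0.0435), passed the adjusted threshold, as did 575 genes (3.48%). With arrays weighted by their reproducibility (0.352 for Keap1_KO B and 3.38 for WT A), 7 members passed, Mcm3, Gins2, Rfc2, Lig1, Rrm1, Rrm2 and Cdk4, all higher, beside 1880 genes (11.2%). Keap1_KO B had the lowest weight of the arrays, so these counts are no separate support either. At an unadjusted p under 0.05 the number of members higher was 2 without Keap1_KO C (against 2.68% of all genes), 3 without Keap1_KO D (2.51%), 2 without WT F (3.47%) and 5 without WT D (10.3%). Lig1 and Rrm2 were among them in each of these. Members without overlap numbered 15 without WT A (against 12.6% of all genes) and 15 without WT D (23.9%). Ccnd2 was lower at an unadjusted p under 0.05 with array weights and without WT F.

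The rest of the pathway was read from a list of 74 further replication and G1/S genes, of which 67 were tested. In this list 50 had a higher mean (median 0.15), 8 were higher at an unadjusted p under 0.05 and 0 lower (against 8.38% and 1.92% of all genes), and 12 lay above WT on all arrays and 1 below (against 9.11% and 4.96%). None passed the adjusted threshold. Orc5 and Ccnd1 share their clusters with other transcripts, and Dna2, E2f7, Cdkn2b and Mycn were too dim. Some other subunits of the polymerases were among the 8: Pold2 (1.24) and Pold3 (0.63) of polymerase delta and Pola2 (1.01), the partner of Pola1. The remaining polymerase and primase subunits of the list, named after their values were seen, overlapped between the genotypes. They were Pold1 (0.17), Prim2 (0.10), Pole2 (0.07), Pole3 (0.55) and Pole4 (0.21). Tipin, which protects stalled forks, read 9.99, 9.45 and 9.44 in WT and 10.14, 11.51 and 11.02 in Keap1_KO, a difference of 1.27.

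The other 4 of the 8 were Cdkn1a, Cdkn2d, Cdkn2c and E2f4. Cdkn1a, the CDK inhibitor p21, read 5.75, 5.58 and 5.54 in WT and 6.22, 7.32 and 7.27 in Keap1_KO, a difference of 1.31 (SE 0.32, limma adjusted p = 0.476). The inhibitors of Cdk4 and Cdk6, Cdkn2d and Cdkn2c, differed by 0.99 and 0.66. Each was dim, at or above the array median on only 2 of the 3 WT arrays. The lowest Keap1_KO value of Cdkn2c (5.48, on B) was close to its highest WT value (5.44, on A). E2f4, an E2F that represses its targets in quiescent cells, read 7.75, 7.96 and 7.37 in WT and 8.31, 9.61 and 9.30 in Keap1_KO, a difference of 1.38. In all 4 genes each Keap1_KO array exceeded each WT array. Other genes that restrain entry into S phase, named after their values were seen, overlapped between the genotypes: the pocket proteins Rb1 (-1.11, the lowest difference in the list), Rbl1 (-0.24) and Rbl2 (0.12), and the CDK inhibitors Cdkn1b (0.04), Cdkn1c (0.02) and Cdkn2a (0.26). Mcmbp, an MCM-binding protein named after its values were seen, was the 1 gene below WT on all arrays, at 12.39 ± 0.18 and 11.93 ± 0.26.

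Genes of G2 and mitosis also had mostly higher means in Keap1_KO. Of 20 tested genes of a G2/M list, 19 had a higher mean, with a median difference of 0.36, the same as for the replication genes. None passed the adjusted threshold, 5 were higher at an unadjusted p under 0.05 (against 8.38% of all genes), and 7 lay above WT on all arrays (against 9.11%). Keap1_KO B exceeded all WT arrays in 18 of the 20 (against 18.9% of all genes). Keap1_KO C did so in 9 (against 38.2%) and Keap1_KO D in 12 (against 42.3%). Of the 20, 1 was high on Keap1_KO C and D but not B (against 22.3%). Mki67, the proliferation antigen Ki-67, read 10.20, 8.22 and 9.97 in WT and 11.10, 8.15 and 8.50 in Keap1_KO, and Top2a, the mitotic topoisomerase, 11.38, 10.42 and 10.93 and then 11.82, 10.57 and 10.58. Mki67 was the 1 gene of the list with a lower mean (-0.21), and Top2a had the next smallest difference (0.08). Both were highest on Keap1_KO B and near the lowest WT array on Keap1_KO C and D, where the MCM genes were highest. Cdk1, the mitotic kinase, was instead above WT on all Keap1_KO arrays (7.27, 7.62 and 7.58 against 6.80 to 6.98). So were Ube2c (difference 1.11), Mad2l1 (0.71), Birc5 (0.52), Cdc20 (0.49), Kif20a (0.40) and Aurkb (0.27), genes of mitosis named after their values were seen.

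**Figure D4:**
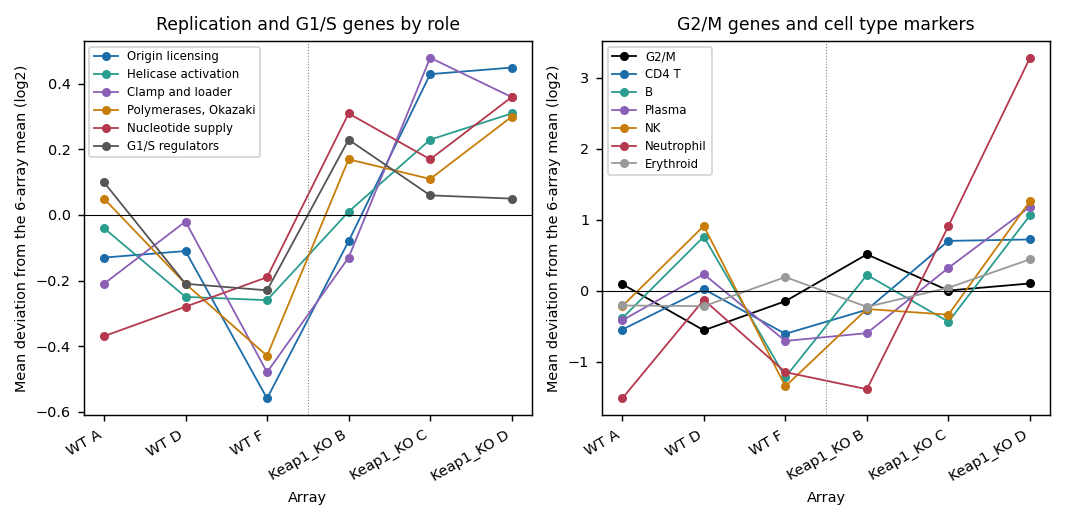
Mean deviation (log2) of each list's tested genes from their 6-array mean, by array; the left panel shows the 6 roles of the replication and G1/S genes and the right panel G2/M genes and cell type markers, on a wider scale. Origin licensing and the clamp loader are high on Keap1_KO C and D and below 0 on Keap1_KO B, whereas G2/M genes are highest on Keap1_KO B and neutrophil genes on Keap1_KO D.

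Marker transcripts of T cells and of other cell types also differed between the same arrays, and cell numbers were not measured. Over all genes tested, the mean deviation from the 6-array mean was -0.1, 0.04 and -0.14 in WT and -0.04, 0.08 and 0.17 in Keap1_KO. The origin licensing genes deviated from their 6-array mean by -0.13, -0.11 and -0.56 in WT and by -0.08, 0.43 and 0.45 in Keap1_KO. General CD4 T cell genes (6 of 6 tested) were also highest on Keap1_KO C and D, with -0.55, 0.02 and -0.61 in WT and -0.27, 0.70 and 0.72 in Keap1_KO. Unlike the licensing genes, they were low on WT A as well as on WT F. Neutrophil genes (10 of 12 tested) ran from -1.52 to -0.13 in WT and stood at -1.39, 0.91 and 3.28 in Keap1_KO. All 10 had a higher mean in Keap1_KO (median 1.91). The 1 without overlap was Mpo, named after its values were seen. Mpo read 6.15, 6.35 and 6.18 in WT and 6.90, 9.37 and 9.82 in Keap1_KO. The Treg list (5 of 6 tested) stood at -0.59, -0.11 and -0.58 in WT and -0.13, 0.67 and 0.75 in Keap1_KO, through the TNF receptors Tnfrsf18 (difference 2.35) and Tnfrsf4 (2.01) and not through Il2ra (-0.05), Ctla4 (0.08) or Ikzf2 (-0.11). Plasma cell genes (7 of 7) ran from -0.71 to 0.23 in WT and from -0.60 to 1.18 in Keap1_KO, B cell genes (7 of 8) from -1.22 to 0.76 and from -0.44 to 1.06, and NK cell genes (8 of 8) from -1.35 to 0.91 and from -0.34 to 1.26, highest on Keap1_KO D each time. Erythroid genes (8 of 11) ran from -0.22 to 0.19 and from -0.23 to 0.44. Macrophage genes (7 of 10) ran from -0.81 to 0.25 and from -0.07 to 0.76, dendritic cell genes (7 of 8) from -0.52 to 0.10 and from -0.10 to 0.56, platelet genes (6 of 8) from -0.31 to 0.08 and from -0.14 to 0.25, and the CD8 genes Cd8a and Cd8b1 from -1.07 to 0.37 and from -0.74 to 0.96. Lyz2 (2.86), Bst2 (2.44) and Car1 (0.81), named after their values were seen, had the largest differences in the macrophage, dendritic cell and erythroid lists. The median differences of these lists were 0.16, 0.07 and 0.09. Cebpe, C1qa and Cd14 lay below the array median on every array. Array intensities have no true 0, and the part of these cells in the replication genes was not tested.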

How the data were processed

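Gene expression was measured on 6 Affymetrix mouse arrays (3 Keap1_KO, 3 WT) from 40 ng of total RNA each, amplified before hybridisation. For each cluster the authors deposited a log2 signal on every array. The submitters' processing notes name RMA, the Transcriptome Analysis Console and the Affymetrix Expression Console. Versions and the genome build are not given in the sources used here, and the design text names another array than the annotation used. Values reach 19.93, above the 16 that a 16-bit scanner allows, so an unstated rescaling may affect fold sizes. Arrays have no read depth, and their number limits the precision. Of 65528 clusters, 30354 carried 1 symbol, updated through Entrez identifiers. Clusters with several symbols were kept out of the fit. The brightest cluster stood for a gene.

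Genes were tested across all genes with limma 3.58.1 in R 4.3.3 (lmFit, eBayes, two-sided, Benjamini-Hochberg over 16825 genes), checked on data with known changes. The members, lists and naming rule were chosen with earlier results of these data known: values on every array are given for members without overlap, with unadjusted p under 0.05, or with the 6 largest differences, and for Mcm2 to Mcm7, Pcna, E2f1, Ccne1, Ccnd2, Ccnd3, Cdk4 and Cdk6. Up to 8 further pathway genes with unadjusted p under 0.05 are named, as are Mki67, Top2a and Cdk1 of the G2/M list, Keap1, Nqo1 and the Treg markers. Genes named outside this rule are said to be so, apart from those listed as untested. Alternatives were no or a stricter intensity filter, repeated quantile normalization, median centring, mean over clusters, array weights, eBayes with trend and robust, and each array left out.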

Additional observations from a re-analysis of the deposited data

How the results depend on the processing

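Across 13 alternatives the median member difference stayed between 0.29 and 0.47, and 26 of the 34 tested members kept their direction. The adjusted threshold was passed by 1880 genes and 7 members with array weights, by 1 gene and 0 members with eBayes trend and robust, and by 0 to 575 genes and 0 to 2 members when an array was left out. Members higher at an unadjusted p under 0.05 were 8 in the fit reported (8.38% of all genes), 12 with no intensity filter (5.75%), 12 with centred arrays (10.6%) and 14 with array weights (24.8%). With an array left out they were 2 to 13 (2.51% to 20.4%). Members without overlap and higher were 7 in the fit reported (9.11% of all genes), 8 with no intensity filter (6.01%) and 9 with centred arrays (12.4%). With an array left out they were 7 to 18 (10.6% to 31.6%). Repeated quantile normalization gave -0.0074 for Pcna, 0.074 for Ccne1 and 0.072 for Ccne2, centred arrays 0.028 for Pola1, 0.081 for Ccne1 and 0.096 for Ccne2, and array weights -0.0032 for Orc1 and -0.48 for Cdk6. Leaving out an array moved the difference between -0.041 and 0.11 for Orc1, -0.11 and 0.39 for Mcm4, -0.053 and 0.25 for Mcm10, -0.028 and 0.37 for Pcna, -0.18 and 0.02 for Pola1, -0.37 and 0.60 for Cdk6, -0.36 and 0.15 for Ccne1, and -0.16 and 0.13 for Ccne2. The cause of these turns was not tested. The median of all genes was 0.06 as reported, 0.14 after quantile normalization and 0.17 with centred arrays, where the member median was 0.45 and 0.47. No paired analysis was possible because the groups share 1 replicate letter only.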
